A study of Arabidopsis thaliana with 8 samples.

Results

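Transposable elements are stretches of DNA that can move or copy themselves within a genome, and 805 of the 31189 transposable element loci counted in these Arabidopsis seedlings had their highest RNA level at the end of a long heat treatment. An element locus was included when its highest group mean was that of the heated group, this mean was at least 5 scaled reads, and the heated mean plus 1 was at least 3 times the control mean plus 1. The table also holds 33323 gene loci. Values are in scaled reads, the reads of a locus after division by the factor of its library, so that 1 stands for about 1 read. These 805 loci are called the heat-end elements in what follows. They were chosen by the 4 group means, so their level in heat against control, and their fall from heat, are given as descriptions with no test.

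Total RNA was measured in 8 libraries of whole wild-type seedlings of ecotype Columbia, 7 days old by the label, with 2 libraries in each of 4 groups. CTRL was the control group, LHS seedlings had 30 h at 37 °C, and LHSR12 and LHSR84 seedlings were then returned to 22 °C for 12 h or 84 h. No mutant or transgene was used. The labels give no age at harvest or time of day, and these cannot be told apart from heat and recovery. Nor do they say whether the 2 libraries of a group came from separate cultures, so a p-value reflects only how much these samples vary, which may be technical.

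In plants, most transposable elements are kept silent by DNA methylation, histone H3 lysine 9 methylation and small RNAs, which the RNA-directed DNA methylation pathway turns into further methylation. Some copia-type retrotransposons escape this in heat, and the best known in Arabidopsis is ONSEN, whose long terminal repeats carry heat shock elements bound by heat shock factors. A retrotransposon of this type is copied into RNA from its long terminal repeat, and the RNA is reverse transcribed from a primer that is commonly a transfer RNA. The sources used here pair no family name with an element identifier, so the heat-end elements are named by identifier and no family is assigned to them.

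Sequence could be shown for elements whose values matched those of an annotated gene locus. An element and a gene locus of the same chromosome were paired when their values were identical in all 8 libraries and the highest group mean was at least 20, or when every library was within 10% or 3 scaled reads and the LHS mean was at least 1000. This rule was chosen after the values were seen. It paired 28 heat-end elements, 17 by identical values and 11 by near values. In the identical pairs the same reads then stand in the table under both identifiers. In near pairs the values can differ, as at AT3TE54550 with an LHS mean of 29033 and AT3G32415 with 27797. In 1 further near match, AT3TE57565 with AT5G34865, the loci were on different chromosomes, so near values alone do not show a shared position. Of the 17 gene loci with identical values, 15 are pseudogenes in the TAIR10.1 annotation and 2 are protein-coding. The 2 are AT4G08510, annotated as a mediator of RNA polymerase II transcription subunit-like protein, and AT2G13770, annotated as a nuclease.

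Among the 10 heat-end elements with the highest LHS mean, 7 were paired, all with loci that TAIR10.1 calls pseudogenes. The highest, AT1TE59755, was paired with AT1G48710 at chr1:18013632-18017690 on the plus strand. The others were AT5TE15240 with AT5G13205, AT3TE92525 with AT3G61330, AT3TE89830 with AT3G59720, AT1TE12295 with AT1G11265, AT3TE54550 with AT3G32415 and AT1TE71045 with AT1G58140. Aligned to each other, the 7 loci had 97.17% to 99.877% identical bases over 2257 to 4059 bases (21 pairs, median 99.357%). How reads were shared among such copies is not stated, so the level of a single copy is uncertain.

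The 600 bases before the start of each paired locus were searched for TTCNNGAA, an inverted pair of the units that make up a heat shock element, which reads the same on both strands. These windows are shown because 6 of the 7 copies hold TTCNNGAA in tandem, with 3 letters between, and the remaining copy holds it once. Capitals mark the TTC and GAA units, and sequence is from the RefSeq TAIR10.1 genome, 5′ to 3′ on the strand of the locus (chr1:18013280-18013339 plus strand, chr3:22059653-22059712 plus strand and chr1:21529677-21529736 minus strand). The window of AT1G48710 is identical in 5 of the 7 loci.
AT1G48710: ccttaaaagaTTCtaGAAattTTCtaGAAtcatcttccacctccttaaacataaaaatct
AT3G59720: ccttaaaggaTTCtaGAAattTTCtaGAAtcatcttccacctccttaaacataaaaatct
AT1G58140: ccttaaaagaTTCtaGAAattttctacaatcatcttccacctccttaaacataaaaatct

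In 5 of the 7 loci the first TTCNNGAA began 342 bases before the annotated start, and in the others it began 365 bases before (AT5G13205) and 495 bases before (AT3G32415). Among 37897 windows of the same length before annotated loci, 19.39% held TTCNNGAA and 13 windows, 0.0343%, held the tandem form TTCNNGAANNNTTCNNGAA. Of those 13, 6 belong to paired heat-end elements. Of the 21 other paired heat-end elements, 5 had TTCNNGAA in the window and 0 had the tandem form. A match is a description of the letters, and no match says only that they are not in that window.

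A further run of letters, TGGTATCAGAGC, is complementary to the end, with the added CCA, of 8 of the 23 methionine transfer RNA genes annotated in TAIR10.1, and such letters are the primer binding site of many plant long terminal repeat retrotransposons. Those 23 genes have 6 different ends, and this run was picked as the one found before AT1G48710, so that match was fixed in advance. The run was found before all 7 loci, but the others are close copies of AT1G48710 and are not separate support. Searched on both strands, the run was present in 0.797% of the 37897 windows and in 2 of the 21 other paired heat-end elements. It is shown in capitals for AT1G48710, at chr1:18013595-18013631, where it began 27 bases before the annotated start.
AT1G48710: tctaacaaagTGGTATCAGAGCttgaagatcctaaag

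At the end of heat a few copies held most of the element RNA. AT1TE59755 had 77.2 and 217 scaled reads in the CTRL libraries, 241420 and 332286 in LHS, 119284 and 96455 in LHSR12, and 37924 and 30858 in LHSR84. The groups of this locus did not overlap, and their order was LHS, LHSR12, LHSR84 and CTRL. AT5TE15240 had 42.0 and 79.4 in CTRL, 105611 and 163129 in LHS, 55285 and 37465 in LHSR12, and 14805 and 10999 in LHSR84. AT3TE92525 had 21.7 and 54.7, then 84364 and 119226, then 51997 and 36782, then 15035 and 11613 in the same order of groups. Both kept the order seen at AT1TE59755, with every LHSR84 library far above every CTRL library.

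AT3TE89830 had 28.4 and 88.0 scaled reads in CTRL, 72583 and 120091 in LHS, 45445 and 27488 in LHSR12, and 12580 and 8845 in LHSR84. AT1TE12295 had 10.8 and 18.2, 40958 and 59979, 21737 and 17181, and 7590 and 5259 in those groups. AT3TE54550, the locus whose annotated start lies farthest from its TTCNNGAA letters, had 1.35 and 21.5, 24737 and 33330, 3623 and 2789, and 1207 and 967. AT1TE71045, the copy with a single TTCNNGAA, had 2.71 and 21.5, 10619 and 15466, 5195 and 3122, and 1431 and 1007. In each of these 7 copies LHS replicate 2 was above LHS replicate 1, by 1.35 to 1.65 times, while LHSR12 and LHSR84 replicate 1 were above their replicate 2.

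The 3 unpaired loci of the 10 fell further in recovery. AT3TE59490 had 1.35 and 12.9 scaled reads in CTRL, 25048 and 24928 in LHS, 303 and 183 in LHSR12, and 18.9 and 7.89 in LHSR84. AT1TE24850 had 2.71 and 9.65, 15308 and 17884, 853 and 577, and 195 and 146. AT1TE43225 had 2.71 and 1.07, 8455 and 14101, 218 and 203, and 1.18 and 7.89. The LHSR84 libraries overlapped the CTRL libraries at AT3TE59490 and AT1TE43225, but not at AT1TE24850. As a share of the LHS mean, LHSR84 was at 0.0536% in AT3TE59490, 0.0402% in AT1TE43225 and 1.03% in AT1TE24850, against 3.74% to 13.1% in the 7 paired copies.

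**Figure D1:**
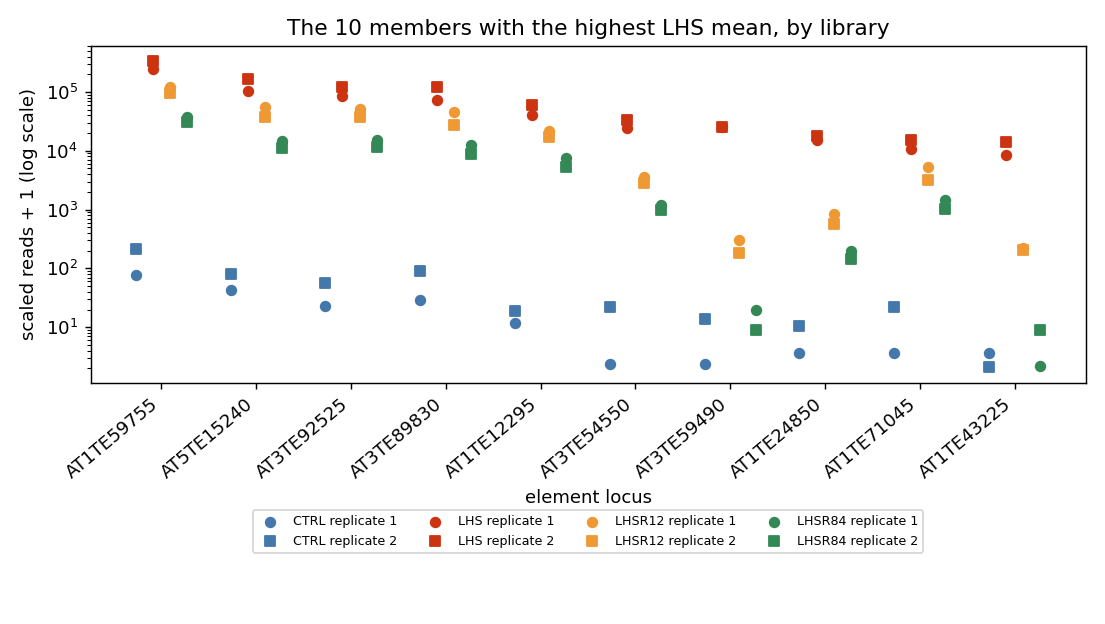
Scaled reads plus 1 (vertical axis, log scale) of the 10 heat-end elements with the highest LHS mean, with a point for each of the 8 libraries and colours for the groups. The 7 paired copies stay far above CTRL at LHSR84, while AT3TE59490 and AT1TE43225 return to single or low double digits.

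Summed over all 805 loci, the heat-end elements had 8370 and 10445 scaled reads in CTRL, 811078 in LHS replicate 1 and about 1.10 M in LHS replicate 2 (M for 1000000), 328902 and 245079 in LHSR12, and 101168 and 79939 in LHSR84. Of all element signal they held 87.3% ± 1.87 at the end of heat and 6.25% ± 0.997 in CTRL, and the share was 65.9% ± 4.10 after 12 h and 37.6% ± 3.27 after 84 h of recovery (SD, n = 2 each). With 2 against 2 libraries an exact permutation test cannot give a two-sided p below 0.333, so the sums were not tested. The 10 highest loci alone held 69.7% ± 4.30 of the element signal in LHS, and the other 795 held 17.6% ± 2.43. The summed level of these 795 was 8179 and 9921 scaled reads in CTRL, 181976 and 196116 in LHS, 24964 and 22835 in LHSR12, and 10380 and 10229 in LHSR84. With the 10 left out of the element signal as well, the 795 held 58.0% of it in LHS, 14.0% in LHSR12 and 6.45% in LHSR84, beside 6.03% in CTRL.

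The 7 paired copies had summed levels of 184 and 500 scaled reads in CTRL, 580292 and 843507 in LHS, 302565 and 221281 in LHSR12, and 90572 and 69548 in LHSR84. At LHSR12 they stood at 36.8% of their LHS mean and at LHSR84 at 11.2%. The other 798 heat-end elements, with 230786 and 253029 in LHS, stood at 10.4% and 4.34%. The 7 loci held 63.3% and 56.9% of all element signal in the LHSR12 libraries and 35.7% and 30.7% in the LHSR84 libraries.

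**Figure D2:**
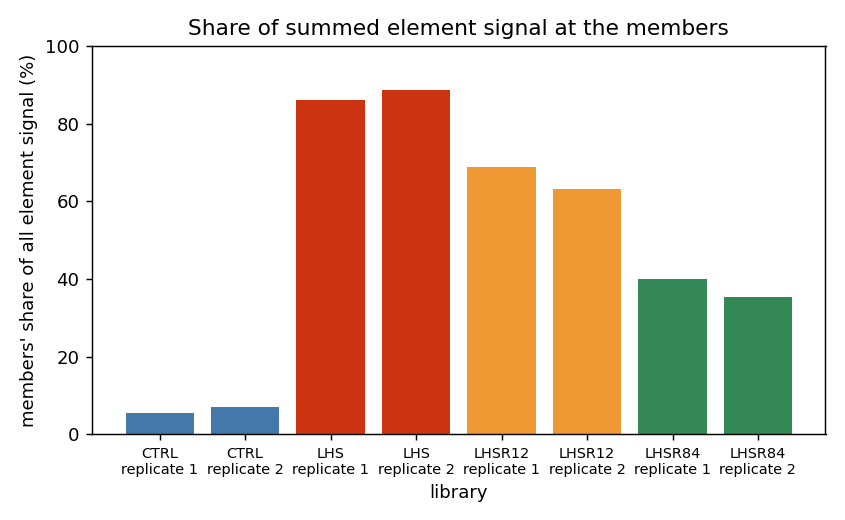
Share of the summed signal of all element loci (percent, vertical axis) held by the 805 heat-end elements in each of the 8 libraries. The bars stand at 5.55% and 6.95% in CTRL, 86.0% and 88.6% in LHS, 68.8% and 63.0% in LHSR12, and 39.9% and 35.3% in LHSR84.

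All element loci together took 0.586% and 0.627% of the signal of the table in CTRL, 3.58% and 4.39% in LHS, 2.15% and 1.76% in LHSR12, and 1.10% and 0.991% in LHSR84. Reads at gene loci numbered 18.9 M to 28.3 M in the 7 libraries whose reads could be recovered, and LHS replicate 1 had 25.4 M scaled reads at gene loci. In whole seedlings, a change in the share of cells that hold an RNA and a change in RNA per cell cannot be told apart.

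The heat-end elements ranged widely in level. Their LHS means ran from 5.03 to 286853 scaled reads with a median of 23.2. There were 204 loci with LHS means below 10, 404 from 10 to below 100, 149 from 100 to below 1000, 36 from 1000 to below 10000, and 12 above, and these 12 held 82.5% of the summed LHS signal of the set. The heated mean plus 1 was 3.04 to 5457 times the control mean plus 1, with a median of 11.1. Both LHS libraries were above both CTRL libraries at 797 of the 805 loci, which the choice of loci by these same means largely fixed.

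Most had no signal or nearly none in control seedlings, and a choice by ratio to CTRL favours such loci. Of the 805 loci, 245 and 319 were above 0 in the CTRL libraries, as were 804 and 805 in the LHS libraries, 611 and 614 in LHSR12, and 403 and 408 in LHSR84. Of all 31189 element loci, 2022 and 2268 were above 0 in CTRL, 3627 and 3677 in LHS, 3569 and 3674 in LHSR12, and 2560 and 2573 in LHSR84. A low CTRL level is therefore not particular to the heat-end elements. Both CTRL libraries were at 0 at 453 loci, 56.3% of the set. A count of 0 is compatible with up to 3 reads, or 4.06 and 3.22 scaled reads in the CTRL libraries, from counting error alone. Only LHS had a signal at 94 loci.

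The highest ratios to CTRL were at loci with almost no signal in CTRL. AT2TE15415 had 0 and 1.07 scaled reads in CTRL, 9056 and 7711 in LHS, 401 and 424 in LHSR12, and 4.73 and 10.8 in LHSR84. AT2TE11540 had 1.35 and 2.15, 9855 and 11844, 173 and 56.5, and 41.4 and 19.7. AT3TE51895, paired with the pseudogene AT3G30844, had 1.35 and 1.07, 5943 and 9334, 323 and 288, and 10.6 and 10.8. At each of these loci, LHSR12 lay well below LHS and well above CTRL. AT5TE46850 was at 0 in both CTRL libraries with 3807 and 3878 in LHS, which is at least 1055-fold higher, taking a floor of 3 reads per CTRL library.

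Just inside the level threshold were AT5TE15670, AT5TE36510 and AT4TE22760 with LHS means of 5.03, and just outside AT4TE08455, AT3TE64600 and AT1TE56530 with 4.55 to 4.56. For the ratio, AT5TE54025, AT4TE35400 and AT3TE05240 lay just inside at 3.04, and AT3TE16190, AT4TE04470 and AT5TE60360 just outside at 2.98 to 2.99. The set therefore grades into the other element loci at both thresholds.

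Differences between groups were tested with limma-trend on log2 of the value plus 1, with all 8 libraries in 1 fit, over the 27638 loci with a mean of at least 1, and a locus was called at a Benjamini-Hochberg adjusted p below 0.05. All 805 heat-end elements passed that filter, as their LHS level was enough to pass it, and 3014 element loci were tested in all. The 3014 include the 805, so values given below for tested element loci are partly those of the heat-end elements.

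After 12 h of recovery, 312 of the 805 loci were still higher than CTRL and 4 were lower. That is 39.3% called, against 35.1% of all tested element loci (28.6% higher and 6.5% lower) and 44.9% of all loci. The median log2 change was 1.08 in the heat-end elements, 0.52 in tested element loci and 0.07 in all loci. These comparisons share the CTRL libraries with the choice of loci, and all 805 were tested because of their LHS level. With only the LHSR12 and CTRL libraries, 531 of the 805 passed the filter and 270 were called. The shares are therefore not a like-for-like comparison. The counts ranged from 254 to 311 called when single libraries were left out, and DESeq2 on the reads of 7 libraries called 189.

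The 10 highest loci were all called higher than CTRL at LHSR12. AT1TE59755 differed by 9.68 on the log2 scale (SE 0.41, adjusted p = 1.25e-06, limma) and AT3TE59490 by 5.37 (SE 0.73, adjusted p = 0.000494, limma). Among the 4 called lower were AT1TE36130, with 4.06 and 2.15 scaled reads in CTRL, 17.0 and 25.4 in LHS and 0 in both LHSR12 libraries, and AT4TE28565, with 43.3 and 23.6 in CTRL, 112 and 138 in LHS, and 8.43 and 11.6 in LHSR12. The other two were AT2TE59330 and AT5TE17345, named, like AT4TE28565, after their values were seen. The call of AT1TE36130 was lost without CTRL replicate 1 (log2 change −1.65, the smallest of the 8 such fits in size, highest adjusted p = 0.0708, limma).

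By 84 h of recovery, 48 of the 805 loci were higher than CTRL and 1 was lower. That is 6.09% called, against 6.83% of tested element loci (5.71% higher and 1.13% lower) and 13.5% of all loci, a share near the background. All 805 were tested because of their LHS level. With only the LHSR84 and CTRL libraries, 340 of the 805 passed the filter, so many had little signal to call here. The shares are therefore not a like-for-like comparison. The median log2 change was 0 in the heat-end elements. All 48 were also higher at LHSR12, where another 263 loci were higher without a call at LHSR84. At 319 loci both LHSR84 libraries were at 0, and at 415 the LHSR84 mean was at or below the CTRL mean. The 415 include 278 loci at 0 in all libraries of both groups, where neither group had a signal to compare.

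Most of the 48 were at a low level. Both LHSR84 libraries exceeded the 3-read floor at 38 of them, the LHSR84 mean was at least 10 scaled reads at 25, and it was at least 100 at 9. The 9 were the 7 paired copies of the highest LHS means, AT1TE24850 and AT2TE07145, which is paired with the pseudogene AT2G04460. In the 7 copies the log2 difference from CTRL at LHSR84 ran from 7.04 (AT1TE71045, SE 0.69, adjusted p = 0.0005, limma) to 8.71 (AT1TE12295, SE 0.28, adjusted p = 5.2e-06, limma). AT1TE24850 was higher by 4.75 (SE 0.43, adjusted p = 0.00035, limma), while AT3TE59490 at 1.22 and AT1TE43225 at 0.67 were not called. The number called ranged from 33 to 61 when single libraries were left out, and was 19 with only the LHSR84 and CTRL libraries in the fit and 26 with edgeR.

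AT3TE57100 was at 0 in both CTRL libraries, with 1167 and 1625 scaled reads in LHS, 161 and 200 in LHSR12, and 46.1 and 46.4 in LHSR84. Both recovery groups lay between CTRL and LHS. Its log2 difference from CTRL at LHSR84 was 5.56 (SE 0.28, adjusted p = 2.46e-05, limma). It was chosen after its values were seen, as the highest LHSR84 difference among loci at 0 in CTRL. The single locus called lower at LHSR84, AT5TE40380, had 1.35 and 2.15 in CTRL, 1869 and 1734 in LHS, 10.7 and 7.73 in LHSR12, and 0 in both LHSR84 libraries. That call was lost when any of the 8 libraries was left out (adjusted p 0.0559 to 0.135, limma).

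The loci that kept the largest part of their LHS level at LHSR84, among the 280 with an LHS mean of at least 50, kept 43.1% to 48.2%. AT2TE16940, with 59.1 and 66.9 scaled reads in LHS, had 33.1 and 27.6 in LHSR84 and 14.9 and 18.2 in CTRL. AT2TE42505, with 197 and 238 in LHS, had 99.2 and 90.7 in LHSR84 and 59.6 and 72.9 in CTRL, and AT1TE66630, with 118 and 86.2 in LHS, had 49.6 and 38.5 in LHSR84 and 27.1 and 29.0 in CTRL. These loci had a level in control seedlings to begin with.

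AT5TE34980 had a low CTRL level, at 0 and 3.22 scaled reads, with 116 and 147 in LHS, 50.6 and 54.1 in LHSR12, and 60.3 and 55.2 in LHSR84. AT1TE91400 had 4.06 and 5.36, 84.1 and 91.3, 30.6 and 32.5, and 33.1 and 48.3. Both were called higher than CTRL at LHSR84, by 4.84 and 2.85 on the log2 scale. From LHSR12 to LHSR84 neither had a called difference (log2 differences of 0.14 and 0.33, adjusted p = 0.883 and 0.492, limma). Of the 280 loci, 86 kept at least 10% at LHSR84, and 70 of these 86 had a CTRL mean of at least 10.

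At the other end, 67 of the 280 loci were at 0 in both LHSR84 libraries. AT1TE71030 had 0 and 1.07 scaled reads in CTRL, 1711 and 2172 in LHS, and 0 in all 4 recovery libraries. AT2TE15400 had 0 in both CTRL libraries, 1598 and 1377 in LHS, and 0.766 and 7.73 in LHSR12, and AT5TE46155 had 0, then 853 and 1022, then 2.30 and 6.19. AT3TE57165, also at 0 in CTRL, had 565 and 713 in LHS and 14.6 and 9.28 in LHSR12. All these were at 0 in LHSR84.

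**Figure D3:**
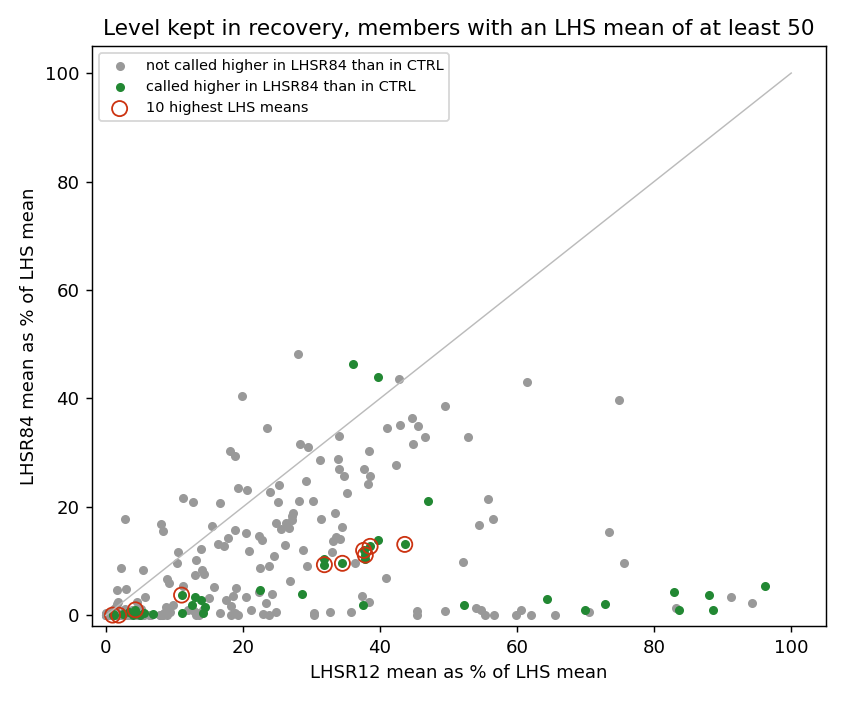
LHSR12 mean (horizontal axis) and LHSR84 mean (vertical axis), each in percent of the LHS mean, for the 280 heat-end elements with an LHS mean of at least 50. Green points are called higher in LHSR84 than in CTRL, and red rings mark the 10 highest LHS means. Points along the bottom were near 0 at 84 h, and those toward its right end had kept more of the LHS mean at 12 h.

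The comparison of LHSR84 with LHSR12 depends least on how the loci were chosen, since the choice placed both groups below LHS but used no ratio between them. All 805 were still tested because of their LHS level. With only the LHSR12 and LHSR84 libraries, 553 of the 805 passed the filter and 221 were called. The shares below are therefore not a like-for-like comparison. Between 12 h and 84 h, 243 of the 805 loci fell and 6 rose. That is 30.9% called, against 25.9% of tested element loci (20.7% lower and 5.24% higher) and 36% of all loci (19.5% lower). The median log2 change was −0.85 in the heat-end elements, −0.38 in tested element loci and −0.08 in all loci. Without single libraries the counts called ran from 175 to 262. The count was 144 with DESeq2 and 156 at an adjusted p below 0.01. With LHSR12 replicate 1 left out, 175 were lower and 0 higher.

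The steepest falls were at loci that had kept 45.4% to 88.6% of their LHS mean at 12 h. A fall to near 0 can be no larger than the LHSR12 level allows, so ranking by its size favours loci high at LHSR12. AT5TE42710 was at 0 in both CTRL libraries, with 288 and 313 scaled reads in LHS, 296 and 237 in LHSR12, and 1.18 and 4.93 in LHSR84. AT5TE41070, also at 0 in CTRL, had 402 and 502, then 422 and 333, then 4.73 and 3.95. AT5TE42470, again at 0 in CTRL, had 302 and 428, then 326 and 189, then 1.18 and 3.95. In these loci the LHSR12 libraries overlapped the LHS libraries, and the LHSR84 libraries were within a few reads of 0.

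AT5TE43260 had 6.77 and 4.29 scaled reads in CTRL, 626 and 870 in LHS, 422 and 317 in LHSR12, and 1.18 and 9.86 in LHSR84. AT4TE19915 had 0 and 3.22, 286 and 253, 142 and 102, and 0 in both LHSR84 libraries. The log2 change from LHSR12 to LHSR84 was −6.93 in AT4TE19915 (SE 0.63, adjusted p = 0.000115, limma) and −6.14 in AT5TE41070 (SE 0.33, adjusted p = 1.05e-05, limma), and all 5 calls held in each of the 8 fits without a library. Over the whole set, 115 loci kept at least 50% of the LHS mean at LHSR12, and 52 of these were below 5% at LHSR84. At 261 loci less than 5% was left by 12 h.

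The 6 that rose were of low level. AT3TE13090 had 10.8 and 15.0 scaled reads in CTRL, 27.0 and 62.9 in LHS, 4.60 and 7.73 in LHSR12, and 26.0 and 29.6 in LHSR84. AT5TE18210 had 8.13 and 3.22, 52.1 and 60.9, 1.53 and 1.55, and 14.2 and 5.92. In each, both LHSR12 libraries lay below both CTRL and both LHSR84 libraries. AT3TE45330, AT1TE36130, AT2TE45810 and AT2TE59330 were the others, with LHSR84 libraries between 1.18 and 22.4. Each of the first 5 named lost its call without at least 2 of the 8 libraries (highest adjusted p 0.102 to 0.183, limma).

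In the high copies the fall from 12 h to 84 h was smaller on the log2 scale than in the loci above. It was −1.65 in AT1TE59755 (SE 0.41, adjusted p = 0.0147, limma), −1.83 in AT5TE15240 (SE 0.33, adjusted p = 0.00355, limma) and −1.61 in AT1TE12295 (SE 0.28, adjusted p = 0.00285, limma). Both LHSR84 libraries were below both LHSR12 libraries in all 7 paired copies, but AT3TE54550 (adjusted p = 0.172) and AT1TE71045 (adjusted p = 0.0814, both limma) were not called. Without LHSR12 replicate 1 the calls of AT1TE59755, AT5TE15240, AT3TE92525, AT3TE89830 and AT1TE12295 were lost, with adjusted p of 0.0611 to 0.22 (limma). AT1TE59755 and AT3TE89830 also lost their calls without any other LHS, LHSR12 or LHSR84 library, and AT3TE92525 without either LHS library, LHSR12 replicate 2 or LHSR84 replicate 2.

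Level in control seedlings went with how much stayed in recovery. The 453 loci at 0 in both CTRL libraries kept a median of 7.36% of their LHS mean at LHSR12 and 0% at LHSR84, and 190 were called higher than CTRL at LHSR12 and 19 at LHSR84. The 265 loci above 0 with a CTRL mean below 10 kept 21.8% and 9.57%, with 88 and 21 called higher. The 87 loci with a CTRL mean of at least 10 kept 28.7% and 20.7%, with 34 and 8 called higher. Of all loci, 24.8% were called higher than CTRL at LHSR12 and 8.59% at LHSR84, and of tested element loci 28.6% and 5.71%. The classes also differed in level, with median LHS means of 16.6, 22.7 and 265 scaled reads in the same order. A floor of 3 reads is thus a larger part of the LHS mean in the first class. The control level sets a lower limit to these percentages at loci that return to it, so this order is a description.

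The heat-end elements were on all 5 chromosomes, with 161 loci on chromosome 1, 162 on 2, 154 on 3, 132 on 4 and 196 on 5. That is 24.0%, 28.5%, 25.9%, 27.3% and 28.1% of the tested element loci of each chromosome. Element identifiers carry a serial number, and over the 54 same-chromosome pairs of element and gene locus found in the whole table, the serial order matched the TAIR10.1 order of the gene loci in 49 of 49 steps. Serial numbers were therefore used as a map of order along each chromosome. The distance between elements was not used.

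Of the 9 bands of 10000 serial numbers with at least 100 tested element loci, a minimum set after the values were seen, the heat-end elements had their highest share in chromosome 5 from 40000 to 49999, at 89 of 160 (55.6%). They were 51 of 109 (46.8%) in chromosome 3 from 50000 to 59999, 53 of 125 (42.4%) in chromosome 4 from 10000 to 19999, and 63 of 150 (42.0%) in chromosome 2 from 10000 to 19999. On chromosome 1 the band from 50000 to 59999 had 44 of 129 (34.1%). Among smaller bands, 2 exceeded 40%, chromosome 3 from 90000 to 99999 with 16 of 34 (47.1%) and chromosome 4 from 90000 to 99999 with 1 of 1. All heat-end elements passed the filter through their LHS level, so these shares depend on it. Of all element loci, tested or not, they were 89 of 1670 in the chromosome 5 band, beside 805 of 31189 in the whole table. They were 51 of 1832 in chromosome 3 from 50000 to 59999, but 16 of 161 from 90000 to 99999. The order of the bands therefore changes with the loci counted. A paired locus within the chromosome 5 band, AT5TE41315, matches the pseudogene AT5G31122 at chr5:11417342-11418304 of TAIR10.1, and 1 within the chromosome 3 band, AT3TE53580, matches AT3G32070 at chr3:13075710-13076285.

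**Figure D4:**
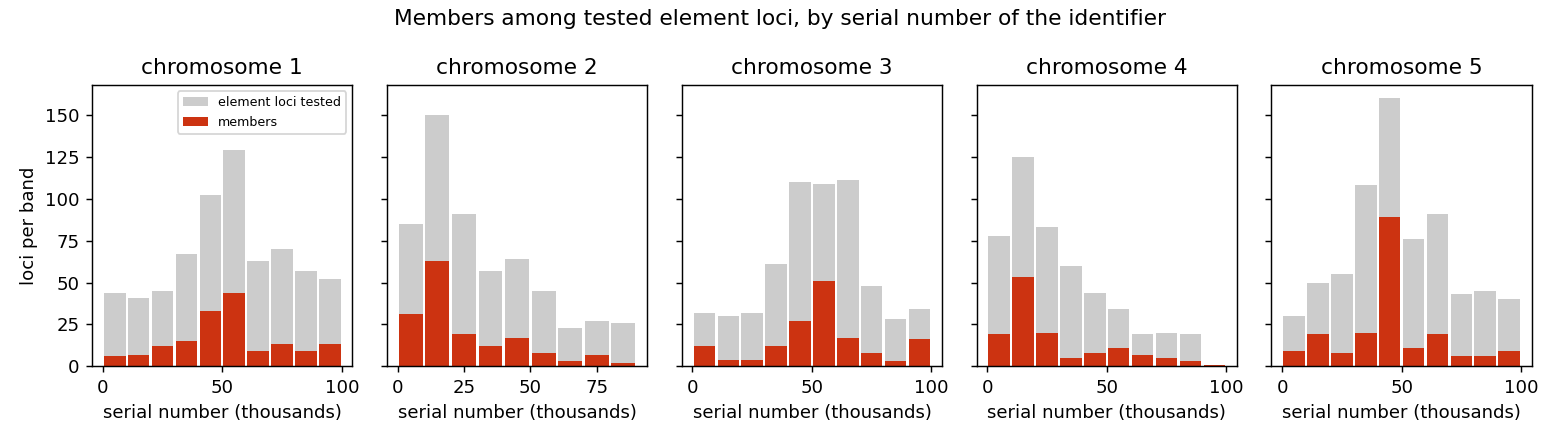
Tested element loci (grey bars) and heat-end elements among them (red bars) in bands of 10000 serial numbers of the identifier, for each of the 5 chromosomes. The tallest red bar is chromosome 5 from 40000 to 49999, with 89 of 160 loci.

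Part of the heat-end elements were serial neighbours. Of the 805, 262 (32.6%) stood directly next to another in the serial order of all element loci of the table, in 77 runs of 2, 26 runs of 3 and 6 longer runs. Elements whose highest mean was LHSR12 by the same thresholds, 407 loci, had 13.0% in runs, and all 3014 tested element loci had 40.3%. A larger set gives more neighbours, so these shares are not compared. The highest summed LHS means were in the runs AT1TE59755 to AT1TE59765, AT3TE54535 to AT3TE54550, AT3TE59490 to AT3TE59500, AT5TE45055 to AT5TE45080 and AT5TE46835 to AT5TE46860.

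The run from AT5TE46835 to AT5TE46860 was the longest, with 6 loci. Their summed levels were 0 and 6.44 scaled reads in CTRL, 14503 and 14901 in LHS, 220 and 116 in LHSR12, and 8.27 and 9.86 in LHSR84. Each of the 6 loci had at most 4.73 scaled reads in either LHSR84 library. The 5 loci from AT5TE45055 to AT5TE45080 had 5.42 and 13.9, 23207 and 21606, 811 and 622, and 39.0 and 18.7. In the run of 3 from AT3TE54535, 1 locus, AT3TE54550, held nearly all of the signal, with 29033 of a summed LHS mean of 29050.

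The part of the LHS level left at 12 h was correlated between serial neighbours. Over 153 pairs of adjacent heat-end elements, it had a Spearman's rho of 0.51 and a Pearson's r of 0.48, and over the 81 pairs with both LHS means of at least 20 these were 0.70 and 0.65. The pairs share libraries and loci, and a transcript that crosses 2 elements would be counted at both, so the values are a description across loci. Pairs that are not neighbours were not compared, so a part played by position is not shown.

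On chromosome 5, loci within the same broad band fell at different rates. The 23 heat-end elements with serial numbers 40000 to 40999 kept a median of 1.84% of the LHS mean at LHSR12 (quartiles 0.417% and 5.05%). The 17 from 42000 to 43999 kept 57.8% (quartiles 28.6% and 69.9%), and the 32 from 45000 to 46999 kept 1.36% (quartiles 0.533% and 8.06%). Between the first stretch and the next, the 9 from 41000 to 41999 kept a median of 15.25% (3.332% to 91.25%). The limits of the stretches were chosen after the values were seen, so no test is given. At LHSR84 the medians of the 3 stretches were 0%, 0.738% and 0%, so all 3 were near 0 by then.

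Summed per library, the 42000 to 43999 stretch had 9.48 and 6.44 scaled reads in CTRL, 2736 and 3373 in LHS, 1785 and 1384 in LHSR12, and 28.4 and 42.4 in LHSR84. The 40000 to 40999 stretch had 1.35 and 8.58, 6254 and 6180, 178 and 112, and 7.09 and 6.90. The 45000 to 46999 stretch had 6.77 and 20.4, 42272 and 40966, 1224 and 840, and 49.6 and 29.6. The LHSR12 libraries stood at 58.4% and 45.3% of the LHS mean in the middle stretch, 2.86% and 1.80% in the first, and 2.94% and 2.02% in the last. The limits were chosen with the values of these same libraries known, so their shared order is no separate support. Exceptions occurred in each, as 13 of 17, 3 of 23 and 2 of 32 loci kept at least 25%.

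**Figure D5:**
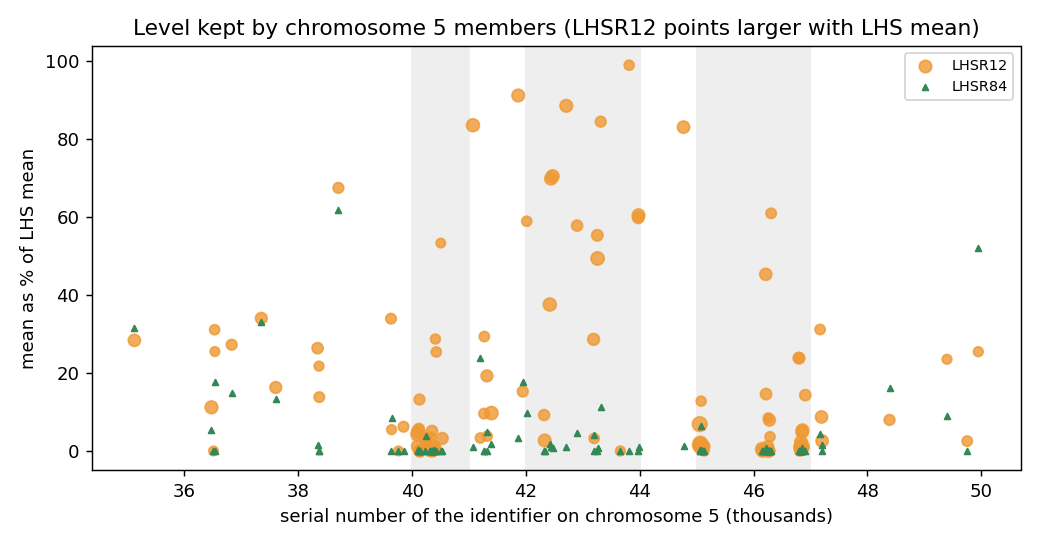
Level kept by heat-end elements of chromosome 5 along the serial number of the identifier (horizontal axis), in percent of the LHS mean, at LHSR12 (orange circles, larger with the LHS mean) and LHSR84 (green triangles). Grey bands mark 40000 to 40999, 42000 to 43999 and 45000 to 46999, with median LHSR12 values of 1.84%, 57.8% and 1.36%.

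The other 7 windows with the tandem letters stand before gene loci that were not paired with a heat-end element, and their levels had no common direction. Group means in LHS were above those in CTRL at 5 of the 7 and below at 2. AT1G58130, a pseudogene, had 2705 scaled reads at the end of heat, beside 3.22 in CTRL, 2.31 after 12 h and 2.66 after 84 h of recovery. AT1G48700, a member of the 2-oxoglutarate and iron dependent oxygenase superfamily, had 1164, beside 6.32, 27.3 and 7.29. AT1G73040, a mannose-binding lectin family gene, had 401 at the end of heat and 421 after 12 h, beside 15.7 in CTRL and 110.0 after 84 h. AT3G32410 and AT5G02035 were low, at 13.6 and 11.6 at the end of heat. AT5G36170, high chlorophyll fluorescent 109, had 1359 at the end of heat, beside 2318 in CTRL, and AT5G36180, serine carboxypeptidase-like 1, had 4.54 beside 425. By locus number, AT1G48700, AT1G58130 and AT3G32410 are close to the paired AT1G48710, AT1G58140 and AT3G32415, and AT5G36170 is close to AT5G36180. Windows of neighbouring loci can overlap, so the 7 may not be separate from each other or from the paired loci.

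Genes that silence transposable elements were measured beside the set. Of a list of 28 silencing genes, all tested, 16 rose and 4 fell in LHS against CTRL, 2 rose and 8 fell in LHSR12 against CTRL, and 0 were called in LHSR84 against CTRL. Over all loci, 35.4% were called higher and 31.1% lower in LHS (66.5% in all), 24.8% and 20% in LHSR12, and 8.59% and 4.87% in LHSR84. The median log2 change of the list was 0.44 in LHS, −0.16 in LHSR12 and −0.04 in LHSR84, beside 0.09, 0.07 and 0 for all loci. From LHSR12 to LHSR84, 9 rose and 2 fell, where 16.5% and 19.5% of all loci did.

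DDM1, a chromatin remodeller needed for methylation of elements, had 604 and 957 scaled reads in CTRL, 1863 and 1621 in LHS, 497 and 473 in LHSR12, and 655 and 766 in LHSR84. RDR2, the RNA polymerase that makes the double-stranded precursors of small RNAs, had 325 and 352, 1105 and 1087, 339 and 265, and 339 and 355. In both genes the LHS libraries lay above all others. CMT2, a methyltransferase of non-CG sites in long elements, had 973 and 1159 in CTRL, 697 and 837 in LHS, 732 and 575 in LHSR12, and 1049 and 1302 in LHSR84. FAS1, a subunit of chromatin assembly factor 1, had 769 and 1110, 408 and 295, 693 and 717, and 773 and 883.

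Heat shock factors bind the heat shock elements. Of 11 listed, 10 rose in LHS against CTRL, with a median log2 change of 2.46 beside 0.09 for all loci. In LHSR12 against CTRL 5 rose and 2 fell, and in LHSR84 against CTRL 4 rose and 1 fell. Over all loci, 35.4% were called higher and 31.1% lower in LHS, 24.8% and 20% in LHSR12, and 8.59% and 4.87% in LHSR84. HSFA2, a heat-induced activator, had 10.8 and 17.2 scaled reads in CTRL, 3204 and 3198 in LHS, 44.4 and 62.6 in LHSR12, and 61.4 and 48.3 in LHSR84. HSFA1E, a factor of the constitutive class, had 152 and 132, 483 and 623, 761 and 804, and 163 and 129, so its highest group was LHSR12. HSFA2 was thus near its LHSR84 level at 12 h, and was called higher than CTRL at both times (log2 changes of 1.87 and 1.92). The 7 paired copies were at 36.8% of their LHS level at 12 h, which is measured against another group, so the 2 are not compared. Whether any of these genes had a part in the levels of the heat-end elements was not tested.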

How the data were processed

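Total RNA from TRIzol extraction was made into strand-specific libraries, per the labels' protocols. Per the submitters' processing notes, the tools were HTSeq 0.9.1, STAR 2.5.3a, CASAVA and DESeq2 1.14.1 with the build TAIR10, but their roles are not stated. Strand use in counting and the handling of multiply mapped reads are not given in the sources used here. For repeated elements both can change single values.

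The deposited table gives a signal per locus and library, which the authors had already scaled. In all 8 libraries 100% of the values above 0 were multiples, by a whole number, of the lowest such value (tolerance 0.001), so each is a read count divided by a library factor. Reads were recovered for 7 libraries. The step of LHS replicate 1 is too near 1 to tell division from rounding, so count tests left that library out. Since the table holds no counts as deposited, limma replaced edgeR as the main test.

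The analysis used R 4.3.3 with limma 3.58.1 (limma-trend, not robust, pseudocount 1, loci with a mean of at least 1, all 8 libraries in 1 fit, two-sided, Benjamini-Hochberg adjustment over 27638 loci, threshold 0.05). A fold change on this scale understates changes of low loci. edgeR 4.0.16, DESeq2 1.42.0, another pseudocount, filters, thresholds, scalings, a replicate block and leaving out each library were alternatives. Fits were tested on simulated data. Loci were aligned with blastn 2.17.0, and sequence, gene names and positions came from RefSeq TAIR10.1 by locus identifier. Floors of 3 reads cover counting error only. An element and a paired gene locus are both in the table, so reads that they share count in both.

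The members, gene lists and tests were chosen with earlier results of these data known. Named loci were the 10 with the highest LHS mean, the 5 with the largest ratio to CTRL, the 5 highest and 5 lowest in LHSR84 relative to LHS (LHS mean of at least 50, of 67 tied at 0 those with the highest LHS mean), 3 on each side of each threshold, up to 5 called each way between LHSR84 and LHSR12, and up to 5 runs of 3 or more neighbours. Other loci, the pairing rule, the letters searched and the chromosome 5 stretches were chosen after values were seen.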

Additional observations from a re-analysis of the deposited data

How the results depend on the processing

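The counts of called heat-end elements kept their main direction under every alternative run. In LHSR12 against CTRL, DESeq2 called 189 where limma called 316. In LHSR84 against CTRL, where limma called 49, the count was 82 with a pseudocount of 0.1, 29 at an adjusted p below 0.01, 19 with only the 2 groups in the fit and 26 with edgeR. In LHSR84 against LHSR12, where limma called 249, it was 156 at an adjusted p below 0.01 and 144 with DESeq2. The causes were not tested, but DESeq2 and the fits of 2 groups tested fewer of the loci. Leaving out 1 library gave 254 to 311, 33 to 61 and 175 to 262 in the 3 comparisons. With the replicate number as a block the counts were 310, 45 and 246; the correlations of same-numbered deviations, −0.061 to 0.040, give no sign that the numbers pair samples. The heat-end elements other than the 10 highest held 17.6% of element signal in LHS, 5.55% in LHSR12 and 4.30% in LHSR84 while the 10 stayed in that total. With the 10 also left out of the total, a setting added after the data were seen, they held 58.0%, 14.0% and 6.45%, beside 6.03% in CTRL. Choosing the loci without 1 library gave 793 to 890, of which 715 to 803 were among the 805, TMM scaling gave 764, an LHS mean of at least 10 gave 601, and a ratio of at least 4 gave 720. Of 1929 alternative values for 34 named loci, 1787 stayed on the same side of the threshold, 123 lost it, 19 gained it and 0 reversed. Loci at 0 in a group rest on 3 reads or fewer, and changes at LHSR84 below about 4 scaled reads are under what this depth can resolve.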
